A study of Caenorhabditis elegans with 2 samples.

Results

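Dense-core vesicles carry neuropeptides, and a range of proteins acts in making, filling and releasing them. The genes of 10 such proteins are described here, in a map of binding of the forkhead transcription factor FKH-8 in the nematode Caenorhabditis elegans. The 10 genes are egl-3, egl-21, sbt-1, ida-1, unc-108, rund-1, cccp-1, ric-19, hid-1 and unc-31, taken by name from 19973 nuclear protein-coding genes of the WBcel235 assembly, the same build as ce11. For each gene, peaks were collected whose summit lay from 2000 bp upstream of the 5′ end to the gene end. Its promoter window reached 1000 bp upstream and 200 bp downstream, and a gene with a summit there was called bound.

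Binding was measured by chromatin immunoprecipitation with sequencing (ChIP-seq) in whole L1 larvae of both sexes, collected 6 hours after synchronization by bleaching and starvation. The worms were of strain OP652, with the mutation unc-119(tm4063) on chromosome III and the integrated transgene wgIs652, which encodes FKH-8 with GFP and FLAG at its C terminus. Per the description the antibody was against GFP, whereas the antibody field names fkh-8. The design had a single condition, sampled by 2 biological replicates, which left nothing to contrast between treatments. All larvae carried the tagged protein, and no untagged or input sample was analysed here. In whole larvae, a site bound in few cells and a site bound weakly in many cannot be told apart.

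In neurons, neuropeptides are made as precursors that enter immature vesicles at the Golgi. Proprotein convertases and carboxypeptidases cut them there, while small GTPases and their effectors sort cargo as the vesicle matures. Release then needs factors that dock vesicles at the membrane and prime them. FKH-8 belongs to the forkhead family and acts in this worm's ciliated sensory neurons.

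The ce11 lists held 19354 peaks for replicate 1, 21452 for replicate 2, 17956 for both replicates pooled, and 4963 in the reproducible list, which the authors filtered by irreproducible discovery rate (IDR). The reproducible list was the 4963 pooled peaks of highest signal, so a rank given below holds for the pooled list too. Signals are the authors' values, in a unit the files do not state, and serve here as ranks and descriptions inside each list. Deposited signals ran from 94.9 to 2102 in the reproducible list, with a median of 164. Read depth is unknown.

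Of the 10 genes, 7 had a reproducible peak in the promoter window: egl-21, sbt-1, ida-1, unc-108, rund-1, cccp-1 and ric-19. Among all coding genes, the same rule called 13.8%. The 4963 highest peaks of replicate 1 alone also bound 7 members, against 13.5% of coding genes, and those of replicate 2 bound 7, against 13.8%. The same 3 genes, egl-3, hid-1 and unc-31, were left out each time. Over the wider span from 2000 bp upstream to the gene end, 8 members had a reproducible peak, egl-3 being the eighth, against 21.6% of coding genes. In that span the best peaks of replicate 1 gave 9 members (21.4% of coding genes), those of replicate 2 gave 8 (21.3%), and the whole pooled list gave all 10 (49.7%). The shares for that span cover genes of all lengths, although a longer gene has more room for a peak. A promoter window widened to 2000 bp upstream and 500 bp downstream held 8 members (18.8% of coding genes), and assigning each summit to the nearest coding 5′ end gave 9 (18.1%). The count stayed at 7 with a window narrowed to 500 bp upstream and 100 bp downstream (10.7%), with the 5′ end of any coding transcript (15%) and with RefSeq 5′ ends (13.9%). It was also 7 with the 2481 highest peaks (8.08%) and with 9926 pooled peaks (21.3%). These counts are descriptions with no test, since the genes were listed with earlier results of the same peak lists known.

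**Figure D1:**
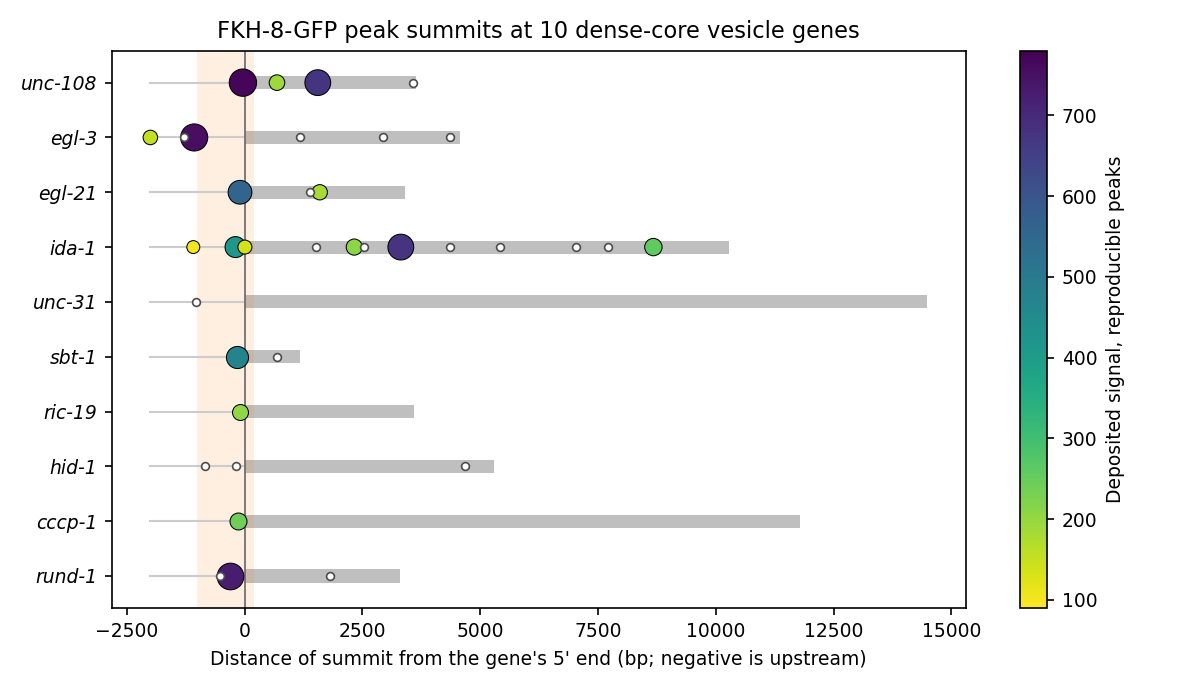
Distance of each peak summit from the 5′ end of its gene, in bp, for the 10 genes; grey bars are gene bodies, the shaded band is the promoter window, filled circles are reproducible peaks coloured and sized by deposited signal, and open circles are pooled peaks below the reproducible cutoff. Of the 10 genes, 7 have a filled circle in the band, egl-3 has its strongest circle 1070 bp upstream of the 5′ end, and unc-31 and hid-1 have open circles only.

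**Figure D2:**
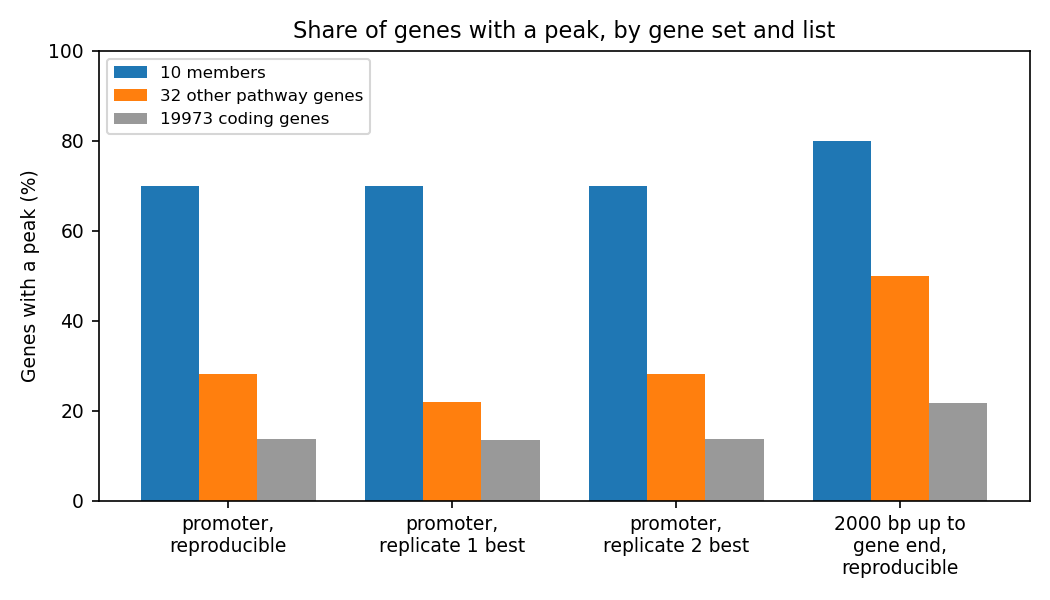
Percentage of genes with a peak among the 10 members, the 32 other pathway genes and all 19973 coding genes, for 3 lists in the promoter window and for the reproducible list over the wider span. The members stand at 7 of 10 in all 3 promoter groups and at 8 of 10 in the wider span; there are no error bars because each bar is 1 count of genes.

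The promoter peaks of the bound members were mostly high within the list. Their best promoter peaks had a median signal of 472.3 and a median rank of 371 of 4963. Over all 2752 bound coding genes the medians were 189.3 and 2018. The members' summits were a median of 135 bp upstream of the 5′ end, and those of all bound genes 233 bp. The spread within the set was wide, from rank 86 at unc-108 to rank 1830 at ric-19.

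**Figure D3:**
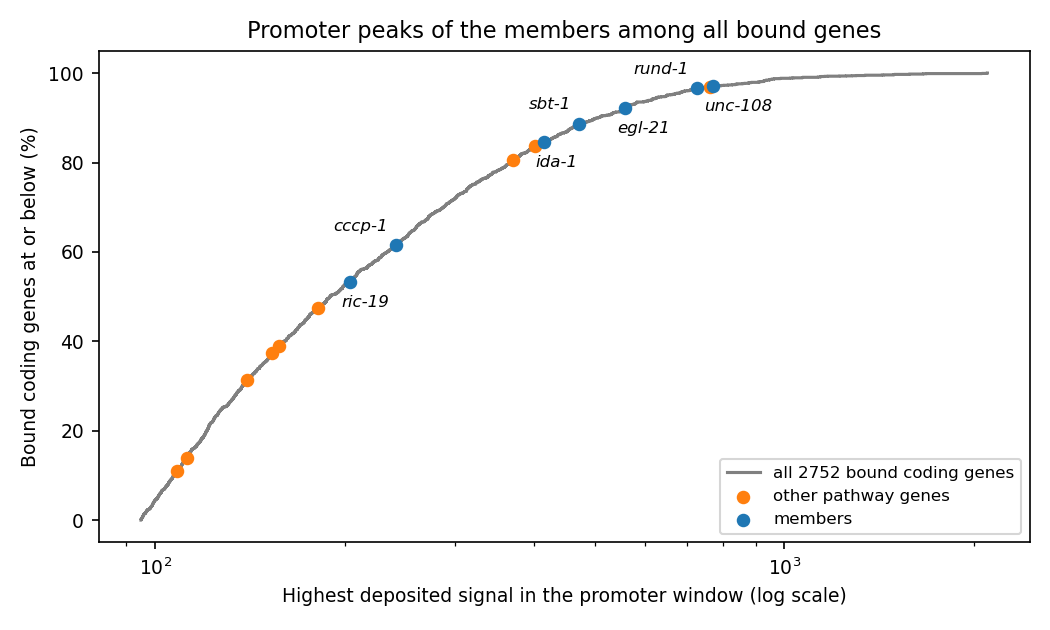
Cumulative percentage of the 2752 bound coding genes by their highest promoter signal (log axis), with the 7 bound members in blue and the 9 bound genes of the wider pathway in orange. Signals of 5 members lie between 414.4 and 769.5, and those of ric-19 and cccp-1 are 203.8 and 241.3, closer to the median of all bound genes.

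The sequence of 121 bases centred on a summit is shown for the highest peak of 6 members and for the highest promoter peak of ida-1, sites to which results below refer. No window is shown for ric-19 or for unc-108, whose promoter peak was the highest of the members' in the pooled list. The window of the farthest upstream ida-1 peak is added because the forkhead word GTAAACA, on the other strand, lies at its pooled summit. Each reads 5′ to 3′ along its gene, from the RefSeq genome of the same build. Capitals mark GACGC, described as an alternative core of some forkhead factors, the forkhead word GTAAACA, the repeat word GAGAGA and the word ACGTCA, on either strand. The egl-3 window holds none of them.
egl-21 promoter (chrIV:10481882-10482002, minus strand): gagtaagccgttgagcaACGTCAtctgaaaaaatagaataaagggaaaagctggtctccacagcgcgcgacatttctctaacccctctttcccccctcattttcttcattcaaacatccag
sbt-1 promoter (chrV:20828977-20829097, minus strand): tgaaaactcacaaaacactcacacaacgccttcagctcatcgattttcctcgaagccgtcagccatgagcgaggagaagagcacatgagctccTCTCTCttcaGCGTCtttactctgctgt
egl-3 upstream (chrV:10174763-10174883, minus strand): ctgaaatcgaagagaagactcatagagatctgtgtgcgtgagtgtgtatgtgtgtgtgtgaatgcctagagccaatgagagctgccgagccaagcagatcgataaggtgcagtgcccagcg
ida-1 promoter (chrIII:5755286-5755406, plus strand): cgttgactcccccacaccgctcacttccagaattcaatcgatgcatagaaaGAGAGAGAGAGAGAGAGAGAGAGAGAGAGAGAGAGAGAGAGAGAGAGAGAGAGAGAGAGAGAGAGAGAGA
ida-1 intron (chrIII:5758794-5758914, plus strand): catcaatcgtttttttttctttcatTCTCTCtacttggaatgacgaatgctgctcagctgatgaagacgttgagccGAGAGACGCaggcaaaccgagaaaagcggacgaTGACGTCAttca
ida-1 far upstream (chrIII:5754390-5754510, plus strand): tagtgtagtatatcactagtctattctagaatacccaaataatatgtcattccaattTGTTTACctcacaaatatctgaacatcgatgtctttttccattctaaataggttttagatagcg
cccp-1 promoter (chrIII:12472678-12472798, plus strand): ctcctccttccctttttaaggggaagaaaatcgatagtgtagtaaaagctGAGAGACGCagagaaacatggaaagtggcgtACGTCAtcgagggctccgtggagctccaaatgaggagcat
rund-1 promoter (chrX:662026-662146, minus strand): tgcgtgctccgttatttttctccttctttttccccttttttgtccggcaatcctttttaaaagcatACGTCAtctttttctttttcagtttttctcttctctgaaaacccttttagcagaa

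The 3 processing genes encode the enzymes that cut and trim the peptide precursor and a chaperone of the first of them. The gene egl-3 (V:10169177 to 10173753, minus strand) encodes the proprotein convertase that makes the first cuts, an ortholog of mammalian PC2. Its highest peak (V:10174626 to 10175063) had a summit 1070 bp upstream of the 5′ end, 70 bp beyond the promoter window, and no reproducible peak lay within the window. That peak had a signal of 389.2 in replicate 1, 359.3 in replicate 2 and 754.9 in the pooled list, where it ranked 92. It lay in a space of 5781 bp free of coding genes, and its summit was in the promoter window of no other coding gene. Beside the summit a run of 12 bases alternated between T and G. Another reproducible peak lay 2000 bp upstream, at the edge of the span searched, with a signal of 152.5 and rank 2739. In the pooled list egl-3 also had 3 peaks inside the gene with signals from 36.5 to 90.3, under the reproducible cutoff.

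The gene sbt-1 (V:20827715 to 20828881, minus strand) encodes the ortholog of 7B2, a chaperone of the convertase. It had 1 reproducible peak (V:20828919 to 20829103), 156 bp upstream, which ranked 371. The signal was 226.7 in replicate 1, 243.6 in replicate 2 and 472.3 in the pooled list, and the ranks in the replicates were 388 and 385. The summit also lay 774 bp upstream of num-1, the Numb gene, which starts on the other strand. A peak in this shared space of 929 bp cannot be given to either gene from these files.

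The gene egl-21 (IV:10478442 to 10481844, minus strand) encodes carboxypeptidase E, which trims the ends the convertase leaves. Its promoter peak (IV:10481820 to 10482077) had a summit 98 bp upstream and signals of 258.1 in replicate 1, 308.1 in replicate 2 and 558.9 in the pooled list, rank 236. A second reproducible peak lay in the first intron, 1595 bp downstream, with signals of 86.1, 90.6 and 180.1 in the same order. Both sites were thus among the 4963 highest peaks of each replicate, the promoter site higher in each. Like egl-3, egl-21 had 2 reproducible peaks in the span, and 4.14% of coding genes had 2 or more.

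The gene ida-1 (III:5755539 to 5765816, plus strand) encodes a transmembrane protein of the vesicle, the worm member of the IA-2 and phogrin family of tyrosine phosphatase-like proteins. It had 6 reproducible peaks, more than any other member. Only 0.12% of coding genes had 6 or more in the same span. A longer span can hold more peaks, and of 864 genes whose span was within 1.2 times that of ida-1, 0.463% had as many. The highest of the 6 was not at the promoter but in the first intron, of 5740 bp, with a summit 3315 bp downstream (III:5758677 to 5758975). Its signal was 333.1 in replicate 1, 348.0 in replicate 2 and 675.8 in the pooled list, and its rank was 125, 129 and 127. The replicates placed this summit within 15 bp of the pooled one. Also in the first intron lay a peak 2327 bp downstream (pooled signal 209.8), and in the eighth intron one 8675 bp downstream (258.0).

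At the ida-1 promoter, the higher peak (III:5755275 to 5755481) had a pooled summit 193 bp upstream, with signals of 199.7 in replicate 1, 216.9 in replicate 2 and 414.4 in the pooled list, rank 513. This summit lay in an unbroken GA repeat of 84 bases (III:5755336 to 5755419). Replicate 2 put the summit at the same base and replicate 1 put it 66 bp away, also within the repeat. Of all 4963 reproducible peaks, 5 had a GA run of 60 bases or more within 100 bp of the summit. The repeat also falls in an annotated non-coding RNA, B0244.14, and how reads from the repeat were placed is not given in the sources used here. A lower peak overlapping it, with a summit 6 bp downstream in the untranslated region, ranked 3244. The lower peak and the one 1089 bp upstream (rank 4541) were the only 2 of the members' peaks outside the 4963 highest of a replicate. In replicate 1 they ranked 9831 and 8494, with signals of 29.17 and 31.96, and in replicate 2 they ranked 2416 and 3466, with signals of 85.9 and 65.7. The promoter call of ida-1 does not need them as long as the peak in the repeat stands, since that peak is in the window too. Without the peak in the repeat, the call would rest on the lower peak alone. That lower peak (III:5755337 to 5755752) has its summit outside the repeat but also spans nearly all of it.

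**Figure D4:**
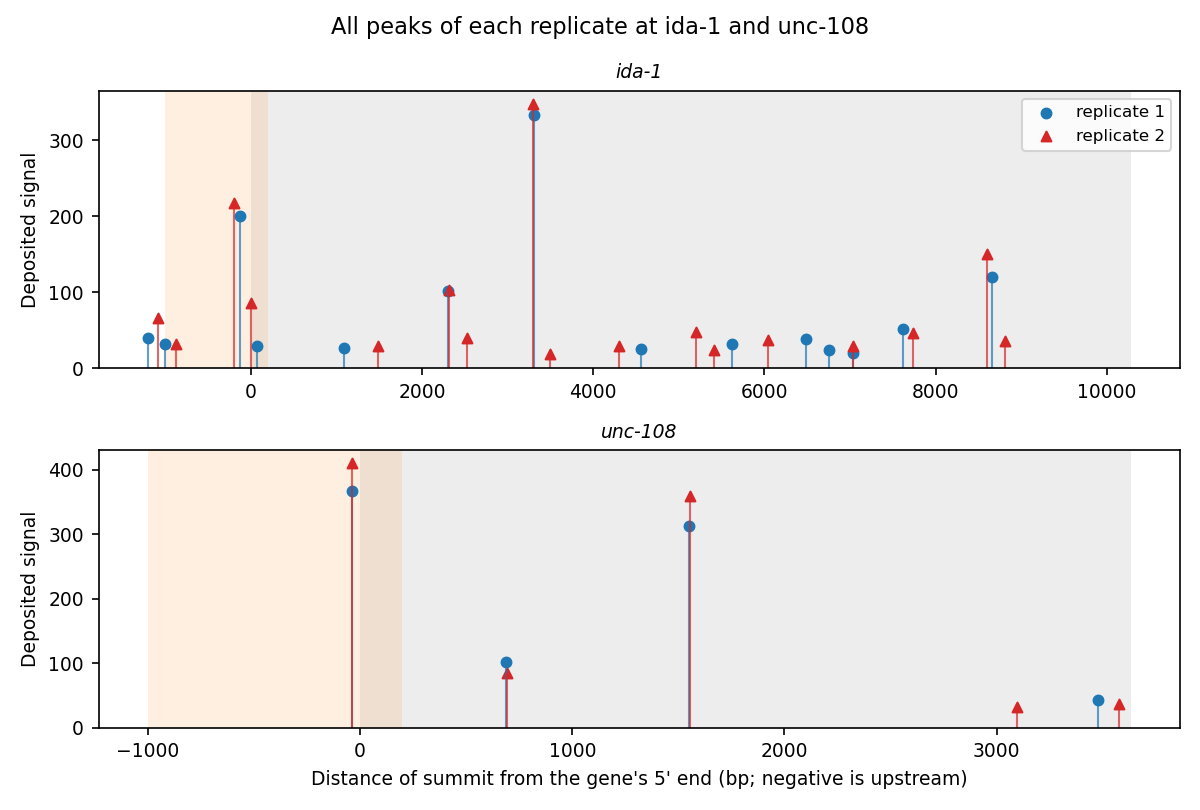
Deposited signal of every peak of replicate 1 (circles) and replicate 2 (triangles) at ida-1 and unc-108, by distance of the summit from the 5′ end in bp; grey marks the gene body and orange the promoter window. In each gene a peak inside the gene, 3315 bp and 1553 bp downstream, stands at a height near or above that of the promoter peak in both replicates.

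The maturation genes centre on unc-108 (I:3822883 to 3826514, plus strand), which encodes RAB-2, a small GTPase that acts in vesicle maturation. Its promoter peak (I:3822690 to 3822988), 36 bp upstream, was the highest of the members' peaks in the pooled list and in replicate 2, while in replicate 1 those of egl-3 and rund-1 were higher. The signal was 367.2 in replicate 1, 410.0 in replicate 2 and 769.5 in the pooled list, and the rank was 88, 80 and 86. Of the 2752 bound coding genes, 83 had a promoter peak at least as high, unc-108 included. Nearly as high was a second peak in the first intron, 1553 bp downstream, with signals of 313.1, 359.3 and 674.4 in the same order. It lay 511 bp upstream of an inner 5′ end from which a shorter transcript is annotated. The remaining peak, 687 bp downstream, had signals of 102.6 in replicate 1, 85.2 in replicate 2 and 189.8 in the pooled list. With 3 reproducible peaks, unc-108 was among 1.04% of coding genes.

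The gene rund-1 (X:658477 to 661777, minus strand) encodes a RUN-domain protein that acts with RAB-2. It had 1 reproducible peak (X:661925 to 662196), 309 bp upstream, with signals of 371.6 in replicate 1, 350.8 in replicate 2 and 726.8 in the pooled list, rank 101. The gene cccp-1 (III:12472873 to 12484651, plus strand) encodes a coiled-coil protein that is an effector of RAB-2. Its peak, 135 bp upstream (III:12472530 to 12472945), was lower, with signals of 132.6, 109.0 and 241.3 in the same order and rank 1424. Although cccp-1 is longer than ida-1, it had no other reproducible peak over its 11779 bp.

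The gene ric-19 (I:3778089 to 3781690, minus strand) encodes the ortholog of the islet cell autoantigen ICA69, another RAB-2 effector. Its peak (I:3781572 to 3781987), 90 bp upstream, was the lowest best promoter peak of the 7, with signals of 115.5 in replicate 1, 112.5 in replicate 2 and 203.8 in the pooled list, rank 1830. Replicate 2 listed 2 peaks there, 5 bp and 212 bp upstream, and replicate 1 listed 1, 175 bp upstream. The summit also lay 338 bp upstream of pmlr-1, which is transcribed the other way from the same space of 427 bp. The RefSeq annotation starts ric-19 further downstream, and the gene was bound from that 5′ end too.

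The gene hid-1 (X:2489048 to 2494339, plus strand), which encodes a Golgi-associated protein needed for sorting neuropeptide cargo, had no reproducible peak in the span. Its pooled peaks had signals of 36.6 to 40.6, near the lowest of that list (35.95), and ranked 14543 or lower of 17956. The promoter summits of the replicates were at different places, 841 bp upstream in replicate 1 (signal 25.04) and 473 bp upstream in replicate 2 (34.3). The nearest reproducible summit to its 5′ end was 17895 bp away.

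The gene unc-31 (IV:12773867 to 12788354, plus strand) encodes CAPS, needed for docking and priming of dense-core vesicles. It had no reproducible peak in the span of 16488 bp, though it is the longest of the members. A pooled peak 1028 bp upstream had a signal of 77.0 and ranked 6341. It ranked 4656 in replicate 1 (signal 50.8) and 11680 in replicate 2 (24.3). Just beyond the span, 2220 bp upstream, was a reproducible peak (IV:12771592 to 12771797) with signals of 205.8 in replicate 1, 259.7 in replicate 2 and 464.3 in the pooled list, rank 387. Its summit was outside coding genes, and unc-31 was the coding gene whose 5′ end lay nearest to it.

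In all, the members had 17 reproducible peaks, of which 8 were in promoter windows. All 17 overlapped a peak of each replicate by at least 1 base, as did 99.9% of all reproducible peaks, and all 17 had a summit within 100 bp in each replicate, as did 96.9%. Of the 17, 15 were among the 4963 highest peaks of both replicates, against 81.7% of all reproducible peaks. Of the 7 bound members, 3 (egl-21, ida-1 and unc-108) had a reproducible peak more than 200 bp inside the gene as well. Among all bound coding genes, whatever their length, that share was 8.54%. The inner peaks of these 3 genes were all in introns. The unc-108 peak 1553 bp downstream also lay 511 bp upstream of an inner 5′ end.

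**Figure D5:**
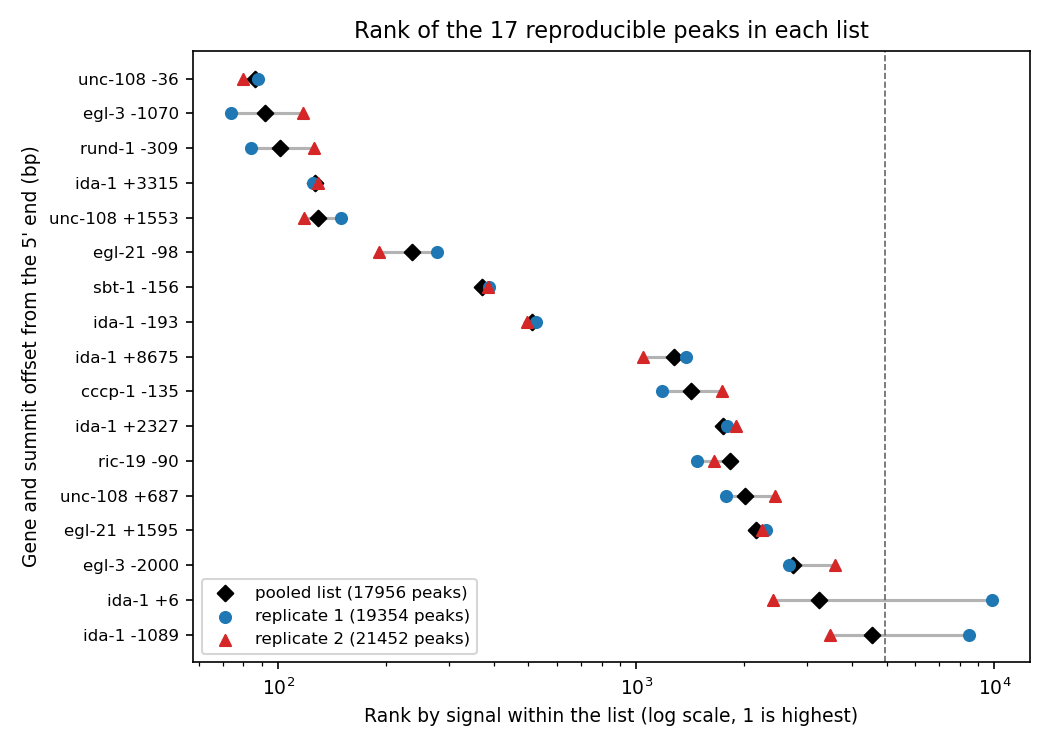
Rank by signal (log axis, 1 is the highest) of the 17 reproducible peaks of the members in the pooled list and in each replicate's list, labelled by gene and by summit distance from the 5′ end; the dashed line is rank 4963. The lists differ in length, so ranks are given side by side; 15 peaks lie left of the line in all 3 lists, and the 2 exceptions are ida-1 peaks that lie right of it in replicate 1 alone.

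Sequence within 100 bp of the 17 summits held GACGC at 8 peaks of 6 members, with matches on both strands counted. Of all reproducible summits, 30.7% held it, and of those in promoter windows 33.8%. At cccp-1 the match was centred 4 bp from the summit, and at the high intronic peak of ida-1 it was 22 bp away. At the unc-108 peaks 36 bp upstream and 1553 bp downstream it was 20 bp away. At the remaining peaks with the word it was 45 to 91 bp away. The cccp-1 and ida-1 windows shared the 11 bases GAGAGACGCAG, in which the words GAGAGA and GACGC overlap. GAGAGA itself was at 6 of the 17 peaks, against 34.6% of all reproducible peaks, and the E-box CANNTG at 13, against 62.2% (59.3% in promoter windows). The forkhead word GTAAACA was at 2 peaks, both of ida-1 (1089 bp upstream and 8675 bp downstream), against 4.05% of all and 4.03% of those in promoter windows. It lay at the pooled summit of the first, the lowest-ranked of the 17 (rank 4541), and 96 bp from the summit of the second. Replicate 1 had no summit at the first match. Its summits there were 1202 bp and 996 bp upstream of the 5′ end, and that of replicate 2 was 1082 bp upstream. None of the 17 held an X-box, the site of RFX factors in ciliary genes, which 3.49% of all reproducible peaks and 3.94% of those in promoter windows held. Base composition ran from 28.9 to 52.7% GC, with a median of 41.3%, against 40.8% for all reproducible peaks.

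The word ACGTCA was picked after the sequences at the members' summits had been read, so its counts describe those sequences and carry no test. It lay within 100 bp of 9 of the 17 summits, at 7 of the 8 members with a reproducible peak, ric-19 being the exception. Within 50 bp it was at 4 of the 17. Of all reproducible summits 12.5% held it, and of those in promoter windows 10.6%. The nearest match was centred 8.5 bp from the summit at rund-1, 14.5 bp at the ida-1 peak in the eighth intron and 23.5 bp at cccp-1. The longer word ACGTCATC was at 6 of the 17, namely at egl-3, egl-21, cccp-1, rund-1, and the ida-1 peaks 3315 bp and 8675 bp downstream. It was at 1.73% of all reproducible summits and 0.952% of those in promoter windows. GAGACGC, picked in the same way, was at 4 of the 17 peaks, against 12.4% of all. Of 34 reproducible peaks of the wider pathway described next, ACGTCA was at 6, ACGTCATC at 2 and GAGACGC at 4.

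Of 33 further genes of the dense-core vesicle pathway, 32 were found by symbol in the annotation, and 9 of these had a reproducible peak in the promoter window (28.1%), against 13.8% of coding genes. The median best signal of the 9 was 157.6 (rank 2629), below the median of 189.3 over all bound genes. In peptide processing and breakdown 3 of 10 were bound. These were pghm-1 (371.0, 55 bp upstream) and pgal-1 (153.6, 81 bp upstream), which encode the enzymes of the consecutive steps of peptide amidation, and the convertase gene bli-4 (108.5). The gene of the bifunctional amidating enzyme, pamn-1, and the carboxypeptidase genes cpd-1 and cpd-2 were not. Nor were the remaining genes of this group, aex-5, kpc-1, nep-1 and nep-2. None of these unbound genes had a reproducible peak from 2000 bp upstream to the gene end. In maturation and sorting 2 of 10 were bound, vps-51 (762.0, rank 89), a subunit of tethering complexes, and the endosomal GTPase gene rab-5 (400.8). Both summits also lay in the window of another coding gene, lin-35 and nmat-2. In transport and release 4 of 12 were bound: unc-18 (181.4), aex-6, which encodes Rab27 (157.6), tom-1, which encodes tomosyn (140.2), and rbf-1, which encodes rabphilin (112.2). Over the span from 2000 bp upstream to the gene end, 16 of the 32 had a reproducible peak, against 21.6% of all coding genes. That share covers genes of all lengths, and none was taken for genes as long as these. A longer span can hold more peaks. Of 673 genes with a span within 1.2 times the 13779 bp of cccp-1, 38.6% had a peak. For spans like the 3167 bp of sbt-1 the share was 16.2%, and for those like the 5602 bp of ric-19 it was 24.4%. The spans of the 32 genes range from shorter than that of sbt-1 to longer than that of cccp-1. By group, a peak in the span was at 9 of 12 genes in transport and release, 4 of 10 in maturation and sorting and 3 of 10 in processing and breakdown. Gene length was not matched between these groups. Chosen after the values were seen, cab-1 had 9 peaks there and pkc-1, a protein kinase C that promotes neuropeptide release, had 5, though neither had one in the promoter window. Of all coding genes, whatever their length, 0.03% had 9 or more and 0.21% had 5 or more. No share among genes of like span was taken for either gene.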

How the data were processed

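ChIP-seq peak lists from 2 biological replicates of 1 group were used on the ce11 build. The deposited file lists name a control file and one replicate's alignments behind each replicate list, both replicates' alignments behind the pooled list, and those 3 lists behind the reproducible one. Aligner, peak caller and IDR cutoff: not given in the sources used here. Deposited peaks carry a signal value of unstated scale and a −log10 q-value, in the ninth column of the authors' files, that shared an upper limit in 4096 of the reproducible peaks, so ranks are by signal. The 4 ce10 lists were not used. No file holds read counts, so depth is unknown.

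Summits were placed, 1-based, on Ensembl release 115 gene models, and all peak ends lay within the RefSeq chromosomes. A replicate's peak matched by overlap of at least 1 base, taking the nearest summit. Motifs were sought within 100 bp of summits on both strands. Scripts ran in Python 3.11.15 with pandas 2.3.3 and were tested on simulated peaks. The members, gene lists and words were chosen with earlier results of these data known, and all members are named. Of the other pathway genes, those with a promoter peak are named. So are the unbound genes of peptide processing and breakdown, and cab-1 and pkc-1, chosen after the values were seen. No test was run, and background is the share of all coding genes or peaks called by the same rule. Alternatives changed the window, 5′ ends, number of peaks, replicate, overlap and motif distance.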

Additional observations from a re-analysis of the deposited data

How the results depend on the processing

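The 7 bound members were the count under windows from 500 bp upstream to 100 bp downstream, any annotated transcript's 5′ end, RefSeq 5′ ends (an alternative chosen after seeing the data), the 2481 highest peaks, 9926 pooled peaks and each replicate alone. Windows from 2000 bp upstream to 500 bp downstream gave 8, adding egl-3, and the nearest coding gene gave 9, adding unc-31 too. Over the wider span the count was 8 to 10, and replicate 1 alone gave 9, adding unc-31. The 9 bound genes of the wider pathway became 14 with the wider window (18.8% of coding genes) and 16 by the nearest gene (18.1%). With the 2481 highest peaks they became 4 of 32, or 12.5%, against 8.08% of coding genes. They were 7 with replicate 1 alone (13.5% of coding genes) and 9 with replicate 2 alone (13.8%). Within 50 bp of the summits, GACGC was at 5 of the 17 peaks (21.5% of all reproducible peaks), GTAAACA at 1 (2.12%) and CANNTG at 7 (42.0%). At that width ACGTCA was at 4 (7.35%), ACGTCATC at 3 (0.806%) and GAGACGC at 2 (8.38%), widths tried for these words after seeing the data. Within 200 bp GAGAGA was at 11 (46.0%). Only the width searched differed. No paired analysis was possible because the design had 1 group.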
